A study of Mus musculus with 12 samples.

Results

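The genes followed here are published targets of the microRNA miR-34a and act in cell cycle entry, MYC signalling and chromatin. They are Myc, Mycn, Ccnd1, Ccne2, Cdk4, Cdk6, E2f3, Sirt1, Mta2 and Foxp1. They were chosen by name, and all 10 members were among the 21792 genes of the table and passed the filter that left 21322 genes for testing. RNA sequencing was done on colon tumours of FvB mice, all of which had received azoxymethane, a chemical carcinogen of the colon. It was injected into the abdominal cavity weekly at 10 mg/kg for 6 weeks, and tumours were taken at week 16 after the first injection. Intestinal epithelial cells lacked both miR-34a and p53 (double deficient), p53 alone (p53 deficient), miR-34a alone (miR-34a deficient) or neither (wt), with 3 libraries per genotype. The deletions were restricted to the epithelium, so other cells of the tumour kept both genes, and the labels give neither the driver of the deletion, the age of the mice nor whether animals were pooled. Nothing states that the libraries of a genotype came from separate animals. The p-values cover only the spread among libraries within genotypes, estimated from all genotypes together. That spread may in part be technical.

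miR-34a is transcribed under the control of p53 and lowers the mRNA and protein of genes whose 3′ untranslated region (3′ UTR) pairs with its seed, the stretch near its 5′ end. Cyclin D1 with CDK4 or CDK6, and later cyclin E2 with CDK2, phosphorylate the retinoblastoma protein, which releases E2F factors such as E2F3 and starts the genes of DNA replication. MYC and N-MYC drive growth and ribosome production, SIRT1 removes acetyl groups from p53 and other proteins, MTA2 is a subunit of the NuRD complex, which deacetylates and remodels chromatin, and FOXP1 is a forkhead transcription factor. The comparisons ask whether these mRNAs were higher in tumours whose epithelium lacked the microRNA, with and without p53.

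The mature sequence of miR-34a-5p is shown because its seed defines the sites searched, beside 3 other mouse microRNAs with the same seed (RefSeq, GRCm38.p6). Capitals mark the seed, bases 2 to 8.
miR-34a-5p: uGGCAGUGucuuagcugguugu
miR-34b-5p: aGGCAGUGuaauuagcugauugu
miR-449a-5p: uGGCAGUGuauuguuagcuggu
miR-449c-5p: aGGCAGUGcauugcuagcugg
Mir34a lies at chr4:150068473-150068494 on the plus strand for the mature arm and has no row in the table, so its loss could not be read from these values.

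Seed matches of 3 types were searched on the transcribed strand of the longest 3′ UTR annotated for each gene (GENCODE M21, GRCm38). They were the 8mer CACTGCCA, the 7mer-m8 CACTGCC not followed by A, and the 7mer-A1 ACTGCCA not preceded by C. Of the 10 members, 8 had at least 1 match, against 21.3% of 16049 genes with such a region. An 8mer was found in 5 of 10 members and in 5.46% of those genes, a 7mer-m8 in 3 of 10 and in 11.6%, and a 7mer-A1 in 4 of 10 and in 7.93%. The members were picked as published targets, and 6 of them had a 3′ UTR longer than the median of 1048 bases, so these shares describe the choice and are no finding. A match describes the sequence and does not show that the microRNA binds there. The best match of each member is printed with its flanks, with the match in capitals.
Mycn 8mer, chr12:12936975-12937002, minus strand: tttcccacacggacagtCACTGCCActt
Ccnd1 7mer-A1, chr7:144930742-144930769, minus strand: tttgttttacaatgtcagACTGCCAtgt
Ccne2 8mer, chr4:11203177-11203204, plus strand: ccttgtctaaggagttaCACTGCCAttc
Cdk6 8mer, chr5:3522976-3523003, plus strand: cacagctctgctgccgaCACTGCCAacg
E2f3 8mer, chr13:29907161-29907188, minus strand: agcaattcatttgtaaaCACTGCCAgaa
Sirt1 7mer-A1, chr10:63319846-63319873, minus strand: tagatcttcaccacaaatACTGCCAaga
Mta2 8mer, chr19:8952025-8952052, plus strand: gcaggggaagggaagtaCACTGCCAtgt
Foxp1 7mer-m8, chr6:98929566-98929593, minus strand: agcgctgcatgttgatacCACTGCCttt
Cdk6 had 3 further 7mer-m8 matches in a 3′ UTR of 10217 bases, Foxp1 had 3 matches in all, and E2f3, Sirt1 and Mta2 had 2 each. These letters did not occur in the 466 bases of the Myc 3′ UTR or the 899 bases of Cdk4.

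**Figure D1:**
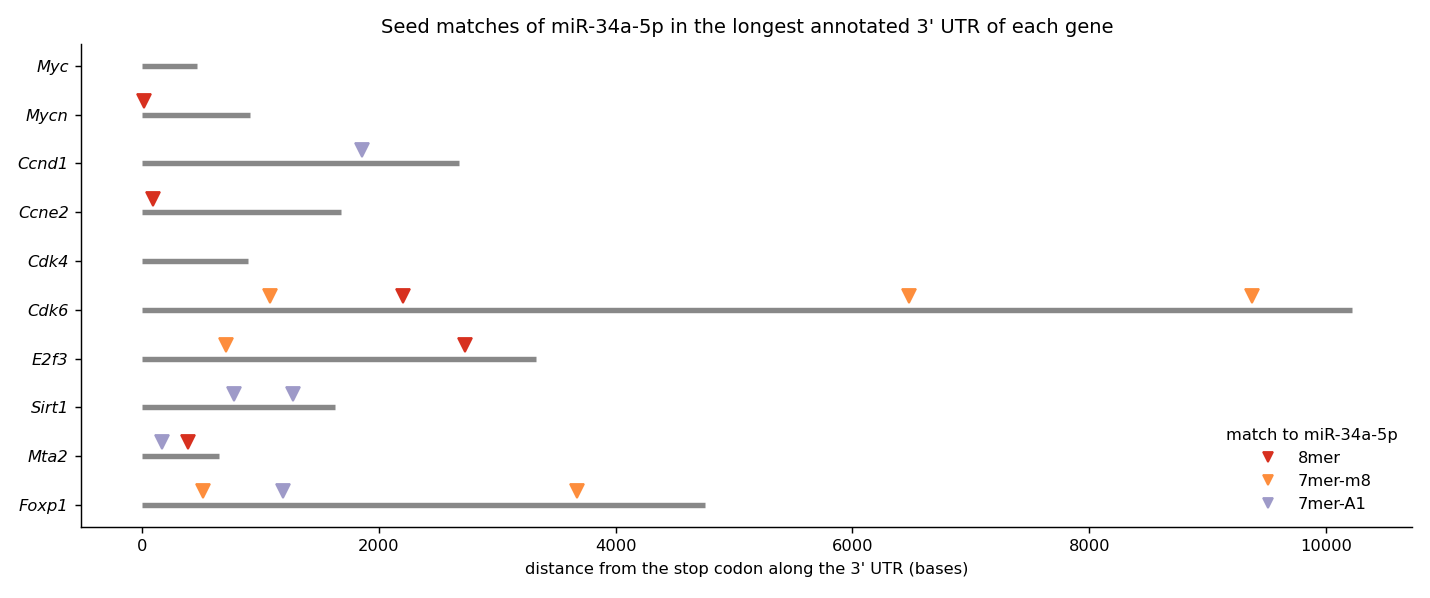
Seed matches of miR-34a-5p along the longest annotated 3′ UTR of each of the 10 genes. Grey bars give the length of the region from the stop codon in bases and triangles the matches, coloured by type. Cdk6 has the longest region (10217 bases) and 4 matches, and Myc and Cdk4 have none.

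The values are normalized expression scores and not read counts, so depth is unknown and levels of different genes are not compared. Trp53, the gene of p53, had values of 924, 504 and 724 in double deficient, 598, 401 and 576 in p53 deficient, 4357, 3466 and 5120 in miR-34a deficient and 4512, 4305 and 4126 in wt tumours. It was thus low in the 6 libraries labelled as lacking p53, and the fall passed the test in each comparison of a genotype lacking p53 with one that has it (adjusted p = 0.000753 in p53 deficient tumours against wt, limma). The libraries also differed in other ways. Averaged over 4 Y-linked genes, the log2 level lay between 0.25 and 0.79 in the 3 double deficient libraries, was 0 in miR-34a deficient 1 and wt 1, and lay between 2.77 and 6.98 in the other 7. Library names carry another run code for p53 deficient 1 and miR-34a deficient 1 than for the other 10. One direction of variation within genotypes was missing from the deposited values, with 47.2% of its weight on double deficient 3. Epithelial markers were above 0 in every library, and their summed values were 583791 to 660453 in double deficient, 702803 to 953256 in p53 deficient, 525021 to 641578 in miR-34a deficient and 591677 to 890144 in wt tumours. Since these are whole tumours, a lower value from fewer cells of a type and one from less RNA per cell cannot be told apart.

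No member passed limma's test (Benjamini-Hochberg adjusted p under 0.05 over all 21322 genes) in any of 7 comparisons. In miR-34a deficient tumours against wt, 0 of 10 members passed, where 0.0375% of all genes did. At an unadjusted p under 0.05, 1 member was higher and 1 lower (4.61% and 1.48% of genes). The lowest adjusted p of a member was 0.417. In double deficient against p53 deficient tumours, 0 of 10 passed (0.605% of all genes), with 1 higher and 2 lower at an unadjusted p under 0.05 (8.05% and 7.08% of genes) and a lowest adjusted p of 0.181. With the loss of miR-34a pooled over both p53 states, 0 of 10 passed (0.342% of all genes), with 0 higher and 2 lower at an unadjusted p under 0.05 (8.85% and 4.89% of genes). The members' median log2 difference was -0.076 in miR-34a deficient tumours against wt (all genes 0.0325), -0.15 in double against p53 deficient tumours (all genes 0.051) and -0.059 in the pooled comparison (all genes 0.041). Of the 10 log2 differences, 4 lay above 0 in the first of these (54.2% of all genes), 4 in the second (55%) and 3 in the pooled comparison (55.8%).

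In p53 deficient tumours against wt, 0 of 10 members passed (0.0234% of all genes), with 2 higher and 0 lower at an unadjusted p under 0.05 (6.69% and 8.62% of genes). In double against miR-34a deficient tumours 0 of 10 passed (0.905% of all genes), with 3 higher and 2 lower at an unadjusted p under 0.05 (7.47% and 10.6% of genes). In double deficient tumours against wt 0 of 10 passed (0.802% of all genes), with 2 higher and 1 lower at that p (7.19% and 8.08% of genes). The interaction, that is the effect of miR-34a loss among p53 deficient tumours minus its effect among tumours with p53, was called for 0 of 10 members (0.0234% of all genes), with 1 above and 1 below 0 at that p (3.26% and 4.63% of genes). These comparisons share libraries and are therefore not independent of each other. In miR-34a deficient tumours against wt, 8 of 10 members had a 95% interval within ±1 on the log2 scale, that is within a doubling and a halving, and 9 of 10 did in double against p53 deficient tumours. In both, 9 of 10 had an interval that ended below a doubling.

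**Figure D2:**
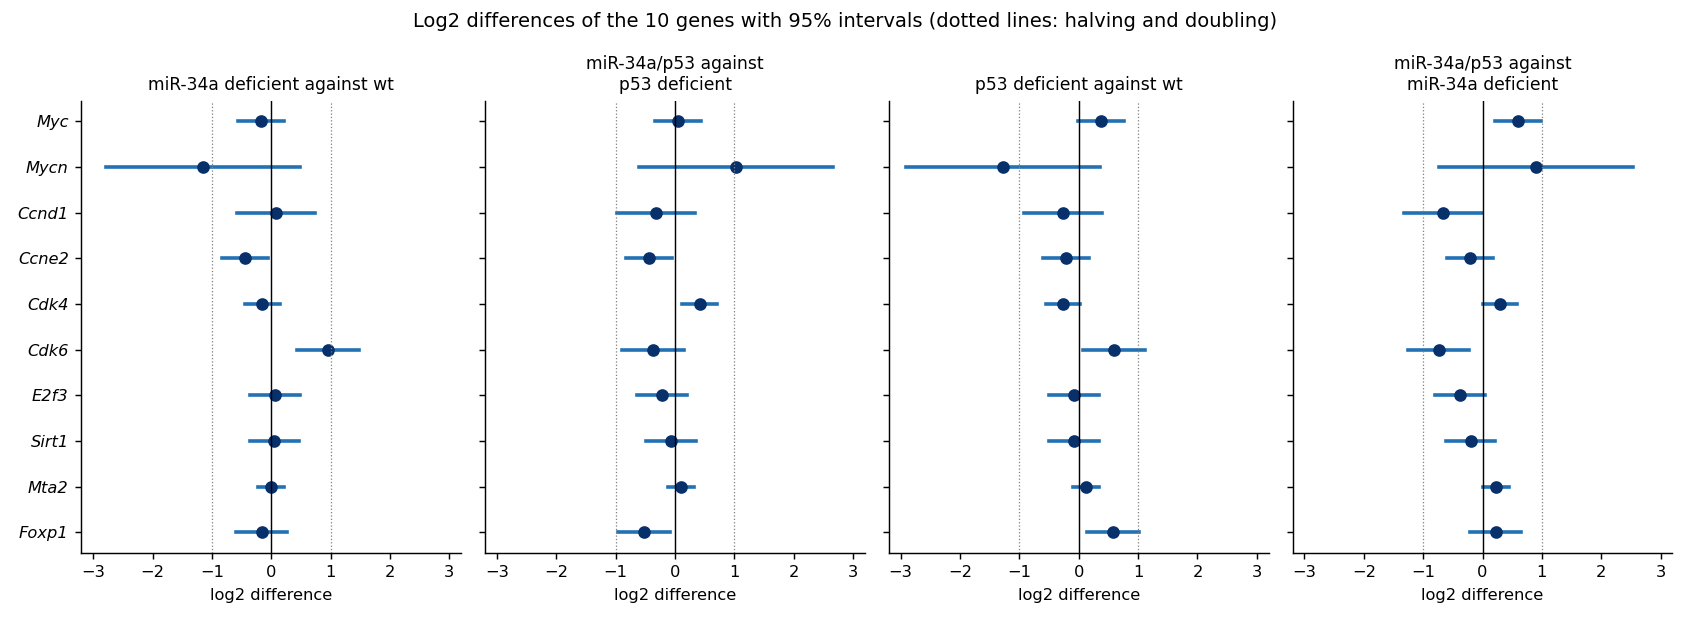
Log2 difference of each of the 10 genes in 4 comparisons, with the first-named genotype over the second. Points are limma estimates, lines 95% intervals, and dotted lines mark -1 and 1. The estimate for Cdk6 in miR-34a deficient tumours against wt is 0.96, intervals of Mycn are the widest, and no estimate passed the test over all genes.

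Among the G1 kinases, Cdk6 had the largest difference above 0 of the 10 members between miR-34a deficient and wt tumours. Its values were 1029, 789 and 904 in double deficient, 852, 1578 and 1183 in p53 deficient, 1663, 1667 and 1232 in miR-34a deficient and 831, 893 and 628 in wt tumours. Every miR-34a deficient library lay above every wt library. The log2 difference was 0.96 ± 0.24 (SE; 95% interval 0.44 to 1.48), or 1.94 times, with an unadjusted p of 0.00182 and a limma adjusted p of 0.417. Of all genes tested, 0.431% had a smaller p. Among p53 deficient tumours the difference for miR-34a loss had the other sign, -0.37 ± 0.24 (adjusted p = 0.486), and those groups overlapped. The interaction was -1.33 ± 0.34 (unadjusted p = 0.00207, adjusted p = 0.378). Double deficient tumours all lay below miR-34a deficient tumours, with a difference of -0.74 ± 0.24 (adjusted p = 0.141), and p53 deficient tumours differed from wt by 0.59 ± 0.24 (adjusted p = 0.274).

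Markers of other cell types were measured in the same libraries. Summed over 8 endothelial markers, the vascular genes Cdh5 and Flt1 among them, the level was 4392 to 6153 in double deficient, 1950 to 2904 in p53 deficient, 3003 to 3608 in miR-34a deficient and 1318 to 2975 in wt tumours. It was thus highest in double deficient tumours. None of the 8 markers was at 0 in any library. In miR-34a deficient tumours against wt all 8 log2 differences lay above 0, with a median of 0.95, and 0 passed (7 at an unadjusted p under 0.05). Log2 differences also lay above 0 for 8 of 8 fibroblast markers (median 0.50), 6 of 6 smooth muscle markers (0.68) and 9 of 9 leukocyte markers (0.36), and for 0 of 11 epithelial markers (-0.22), with none passing in any of these lists. Summed fibroblast markers were 29519 to 43813 in miR-34a deficient and 16667 to 40921 in wt tumours. Smooth muscle markers summed to 1922 to 3353 in miR-34a deficient and 1458 to 2038 in wt tumours, and leukocyte markers to 1254 to 1779 in miR-34a deficient and 805 to 1643 in wt tumours. Epithelial markers summed to 525021 to 641578 in miR-34a deficient and 591677 to 890144 in wt tumours. The ranges of the sums overlapped in each of these lists, and the leukocyte marker Cd8a was at 0 in some library. Without wt 1 the epithelial median was 0.016, with 6 of 11 above 0, and the fibroblast median 0.24, and without wt 3 the leukocyte median was 0.12. The part of these cells in the Cdk6 values was not tested.

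Cdk4, the other kinase that partners the D cyclins, had values of 21123, 17967 and 18103 in double deficient, 15639, 12170 and 15161 in p53 deficient, 16052, 16195 and 14236 in miR-34a deficient and 15713, 16893 and 19008 in wt tumours. The double deficient libraries lay above every p53 deficient and every miR-34a deficient library. Between double and p53 deficient tumours the log2 difference was 0.42 ± 0.13 (95% interval 0.13 to 0.71, unadjusted p = 0.00912, limma adjusted p = 0.181). Without p53 loss the difference for miR-34a had the other sign, at -0.15 ± 0.13 (adjusted p = 0.934). The interaction was 0.57 ± 0.19 (unadjusted p = 0.0115, adjusted p = 0.516).

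Ccnd1, which encodes cyclin D1, had values of 8867, 13635 and 10348 in double deficient, 17952, 11030 and 12344 in p53 deficient, 19469, 14385 and 17888 in miR-34a deficient and 20877, 21260 and 9679 in wt tumours. Its wt libraries alone spanned nearly the whole range. Double deficient tumours lay below miR-34a deficient tumours without overlap, at -0.67 ± 0.30 on the log2 scale (unadjusted p = 0.0475, limma adjusted p = 0.271), and overlapped with p53 deficient tumours (-0.32 ± 0.30, adjusted p = 0.646). The difference between miR-34a deficient and wt tumours was 0.074 ± 0.30 (adjusted p = 0.989).

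Ccne2, which encodes cyclin E2 and has an 8mer, had lower values without miR-34a in both p53 states. It had values of 554, 650 and 612 in double deficient, 814, 809 and 828 in p53 deficient, 608, 743 and 759 in miR-34a deficient and 825, 856 and 1209 in wt tumours. Every library without miR-34a lay below every library with it. The log2 difference was -0.44 ± 0.18 in miR-34a deficient tumours against wt (unadjusted p = 0.0294, limma adjusted p = 0.771; -0.26 without wt 3, whose value was the highest) and -0.44 ± 0.18 in double against p53 deficient tumours (unadjusted p = 0.0303, adjusted p = 0.272). Pooled over p53 states it was -0.44 ± 0.12 (95% interval -0.71 to -0.16, unadjusted p = 0.00465, adjusted p = 0.171). Double deficient tumours against wt gave -0.65 ± 0.18 (adjusted p = 0.12). Double deficient libraries lay below all p53 deficient libraries in the Y-linked level too. Genotype and Y-linked level therefore cannot be told apart in that comparison, for Ccne2 or for any other gene. With that level in the fit the Ccne2 difference between double and p53 deficient tumours was -0.10 ± 0.24.

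E2f3, an activating E2F factor, had values of 2953, 3033 and 2411 in double deficient, 4337, 2775 and 2873 in p53 deficient, 4010, 3513 and 3400 in miR-34a deficient and 2850, 3928 and 3713 in wt tumours. The groups overlapped except that double deficient lay below miR-34a deficient tumours (-0.38 ± 0.19 on the log2 scale, limma adjusted p = 0.324). Loss of miR-34a alone gave 0.068 ± 0.19 (95% interval -0.35 to 0.49, adjusted p = 0.988).

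Myc was the member with the smallest adjusted p of all 7 comparisons. It had values of 7862, 4960 and 6506 in double deficient, 5864, 5979 and 6424 in p53 deficient, 4238, 3761 and 4562 in miR-34a deficient and 5045, 5281 and 3861 in wt tumours. All p53 deficient libraries lay above all wt libraries, and all double deficient above all miR-34a deficient libraries, while double deficient 2 lay below wt 1 and 2. The log2 difference was 0.60 ± 0.18 in double against miR-34a deficient tumours (95% interval 0.21 to 0.99, unadjusted p = 0.00567, limma adjusted p = 0.116) and 0.38 ± 0.18 in p53 deficient tumours against wt (unadjusted p = 0.0556, adjusted p = 0.339). For the loss of miR-34a it was -0.17 ± 0.18 against wt (adjusted p = 0.949) and 0.057 ± 0.18 among p53 deficient tumours (adjusted p = 0.91), with overlap in both. The upper ends of those intervals were 0.22 and 0.44.

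Mycn, the related gene of N-MYC, had low and scattered values of 140, 138 and 63 in double deficient, 209, 21 and 31 in p53 deficient, 58, 46 and 68 in miR-34a deficient and 124, 241 and 69 in wt tumours. Its miR-34a deficient libraries all lay below wt, by 1 unit in the closest pair (68 against 69). The log2 difference was -1.16 ± 0.75 (95% interval -2.79 to 0.48, limma adjusted p = 0.915) in that comparison and 1.03 ± 0.75 in double against p53 deficient tumours (adjusted p = 0.543), and the second interval reached 2.66, so the first interval held a halving and the second a doubling. Leaving out 1 library moved the first difference between -1.59 (without wt 3) and -0.70 (without wt 2), and the second between 0.40 (without p53 deficient 2) and 2.02 (without p53 deficient 1).

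Of the chromatin and transcription genes, Mta2 varied least. It had values of 11796, 11036 and 11791 in double deficient, 10587, 10115 and 11620 in p53 deficient, 9467, 9895 and 10164 in miR-34a deficient and 9972, 10055 and 9556 in wt tumours. Its SD within genotypes was 0.067 on the log2 scale, and 1.1% of 1000 genes of like level had a smaller one. The gene has an 8mer. The log2 difference for miR-34a loss was -0.0030 ± 0.099 against wt (95% interval -0.22 to 0.21, limma adjusted p = 1) and 0.10 ± 0.099 among p53 deficient tumours (adjusted p = 0.662). Double deficient libraries lay above all miR-34a deficient and all wt libraries, by 0.23 ± 0.099 in each case (adjusted p = 0.249 and 0.306).

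Sirt1, the deacetylase gene, had values of 1020, 911 and 1085 in double deficient, 1023, 1016 and 1115 in p53 deficient, 1141, 1070 and 1253 in miR-34a deficient and 1037, 872 and 1517 in wt tumours. Every pair of genotypes overlapped. Its log2 difference was 0.052 ± 0.19 in miR-34a deficient tumours against wt (95% interval -0.37 to 0.47, limma adjusted p = 0.989) and -0.067 ± 0.19 in double against p53 deficient tumours (adjusted p = 0.9).

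Foxp1 had values of 5115, 5008 and 4167 in double deficient, 8510, 5947 and 6208 in p53 deficient, 4179, 4183 and 3854 in miR-34a deficient and 3428, 4695 and 5885 in wt tumours. All p53 deficient libraries lay above every library of the other 3 genotypes. The log2 difference was 0.58 ± 0.20 in p53 deficient tumours against wt (95% interval 0.14 to 1.01, unadjusted p = 0.0138, limma adjusted p = 0.212; 0.37 without wt 1) and -0.52 ± 0.20 in double against p53 deficient tumours (unadjusted p = 0.0233, adjusted p = 0.248; -0.36 without p53 deficient 1). In miR-34a deficient tumours against wt it was -0.16 ± 0.20 (adjusted p = 0.958).

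**Figure D3:**
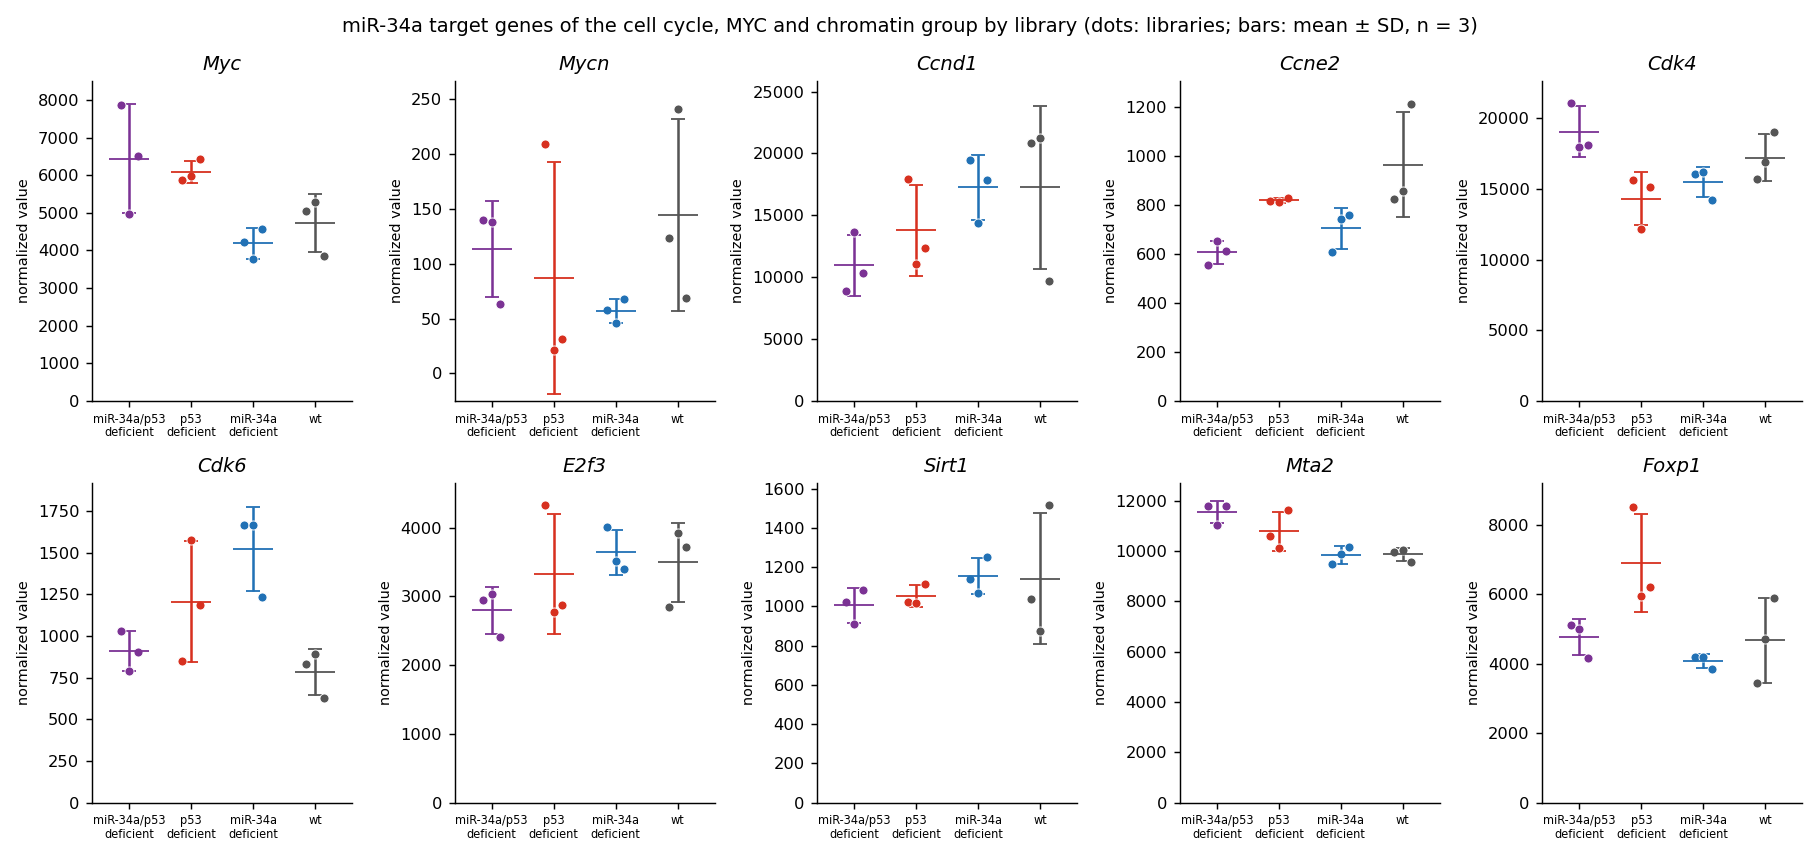
Normalized values of the 10 genes in each library, 1 panel per gene, with genotypes along the horizontal axis. Dots are libraries, horizontal bars genotype means and whiskers SD (n = 3). Foxp1 is highest in the 3 p53 deficient libraries (5947 to 8510), Cdk6 ranges from 1232 to 1667 in miR-34a deficient tumours and 628 to 893 in wt, and the whisker of Mycn in p53 deficient tumours (mean 87, SD 105.8) extends below 0.

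Counted over the members, libraries did not overlap for 1 higher gene (Cdk6) and 2 lower genes (Mycn and Ccne2) in miR-34a deficient tumours against wt, where 6.5% and 3.57% of all genes were higher and lower without overlap. In double against p53 deficient tumours they were 1 higher (Cdk4) and 2 lower (Ccne2 and Foxp1), where 10.7% and 8.89% of all genes were. In p53 deficient tumours against wt they were 3 higher (Myc, Mta2 and Foxp1) and 1 lower (Cdk4), where 6.91% and 9.27% of all genes were. In double against miR-34a deficient tumours they were 3 higher (Myc, Cdk4 and Mta2) and 3 lower (Ccnd1, Cdk6 and E2f3), where 13% and 14.3% of all genes were. In double deficient tumours against wt they were 1 higher (Mta2) and 1 lower (Ccne2), where 9.76% and 10.1% of all genes were.

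Ordered by mean level, Myc and Mta2 ran double deficient, p53 deficient, wt and miR-34a deficient, and in both the gap without overlap lay between p53 deficient and wt. Ccne2 ran wt, p53 deficient, miR-34a deficient and double deficient, with the gap between p53 and miR-34a deficient tumours, and Foxp1 was set apart at the top in p53 deficient tumours. For the other 6 members every neighbouring pair of genotypes in the order overlapped. Ratios of the highest to the lowest genotype mean ran from 1.15 for Sirt1 to 2.52 for Mycn. The genes whose profile over the 12 libraries was most like a member's were taken from 11828 genes as those with the smallest root mean square difference of centred log2 values. For Cdk6, with an SD of 0.46, they were Dennd1c (0.24), Eif3j1 (0.24) and Capn15 (0.26). For Ccnd1, with an SD of 0.45, they included Pam (0.21) and Acot11 (0.23). For Foxp1, with an SD of 0.36, they were Trip13 (0.14), Riok1 (0.15) and Utp15 (0.17), and for Mycn, with an SD of 1.06, Steap1 (0.58), Pcsk6 (0.62) and Dyrk3 (0.63).

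The partners and targets of these genes gave few calls. Of 14 other G1 cyclins, kinases, inhibitors and pocket proteins, 0 passed in miR-34a deficient tumours against wt, and 1 fell and 0 rose in double against p53 deficient tumours. The gene was Ccnd2, which encodes cyclin D2, with values of 27356, 23888 and 22227 in double deficient and 48408, 44193 and 51409 in p53 deficient tumours. It had 46817, 46149 and 30615 in miR-34a deficient and 42175, 50416 and 39824 in wt tumours. Double and p53 deficient tumours were apart, and Ccnd2 fell by 0.97 ± 0.17 on the log2 scale between them (limma adjusted p = 0.0346). In this list Cdkn1a, the p53 target gene of the CDK inhibitor p21, had 5448, 7855 and 6695 in double deficient and 9454, 10113 and 12694 in p53 deficient tumours. Its values were 17793, 24443 and 24519 in miR-34a deficient and 22035, 35763 and 11867 in wt tumours. Cdkn1a fell by 1.74 ± 0.32 in double against miR-34a deficient tumours (adjusted p = 0.0354) and by 1.68 ± 0.32 against wt (adjusted p = 0.0439). Ccne1, the other cyclin E gene, was at -0.46 ± 0.19 in miR-34a deficient tumours against wt (adjusted p = 0.772). Here and below, leaving out a library of a genotype not compared left the difference unchanged. Its p-values moved only through the spread shared by the genotypes. Without wt 1, for example, Ccnd2 stayed at -0.97 (adjusted p = 0.0561). The calls of Ccnd2 and of Cdkn1a in both comparisons were each lost without wt 1 and without each of the 3 double deficient libraries. Those of Cdkn1a were also lost without each miR-34a deficient library, that of Ccnd2 without p53 deficient 2 or 3, and the highest adjusted p over the alternatives was 0.263 for Ccnd2, 0.159 for Cdkn1a against miR-34a deficient tumours and 0.171 against wt, the last also lost without wt 2 and p53 deficient 3.

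Of the 9 other E2F and DP factors 0 passed in any comparison; in miR-34a deficient tumours against wt, 2 were lower and 0 higher at an unadjusted p under 0.05, among them E2f7, a repressor of the family, at -0.70 ± 0.25 (adjusted p = 0.756). Of 20 E2F target genes, which serve DNA replication, 0 passed and all 20 log2 differences lay below 0 in miR-34a deficient tumours against wt, with a median of -0.49 (all genes 0.0325; 7 lower at an unadjusted p under 0.05). Their summed values were 36565 to 42650 in miR-34a deficient and 40909 to 79254 in wt tumours, so the groups overlapped, and wt 3 was the highest. Without wt 3 the median was -0.20, with 17 of 20 below 0, and without wt 2 it was -0.74. Pcna, the sliding clamp, was at -0.50 ± 0.18 (adjusted p = 0.757) and Mcm6, a subunit of the replicative helicase, at -0.79 ± 0.30 (adjusted p = 0.766). In double against p53 deficient tumours 10 of the 20 lay on each side of 0 (median -0.0033; -0.11 to 0.096 leaving out 1 library). In double against miR-34a deficient tumours all 20 lay above 0 (median 0.60, all genes -0.055), and 1 rose, the thymidine kinase gene Tk1, with 969, 1199 and 1413 in double deficient and 500, 495 and 686 in miR-34a deficient tumours (1.09 ± 0.22, adjusted p = 0.0474). Of 12 mitosis genes 11 lay below 0 in miR-34a deficient tumours against wt (median -0.30, 0 passed). Without wt 3 their median was -0.067, with 8 of 12 below 0. All 12 lay above 0 in double against miR-34a deficient tumours (median 0.69), where 1 rose, Cdc20, an activator of the anaphase-promoting complex (0.77 ± 0.16, adjusted p = 0.0492). All 12 also lay above 0 in p53 deficient tumours against wt (median 0.49, 0 passed). The same held in double deficient tumours against wt (median 0.36, 0 passed). Of the 20 E2F target genes, 14 lay above 0 in p53 deficient tumours against wt (median 0.14, 0 passed). In double deficient tumours against wt 15 of them did (median 0.11, 0 passed). Leaving out 1 library, the call of Tk1 held only without wt 3 or p53 deficient 1 and that of Cdc20 only without wt 3, p53 deficient 1 or p53 deficient 3, with adjusted p up to 0.243 and 0.246 over the alternatives.

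Around Myc, 20 MYC target genes of ribosome production and metabolism had a median log2 difference of 0.47 in p53 deficient tumours against wt (19 above 0, 13 at an unadjusted p under 0.05, 0 passed) and 0.62 in double against miR-34a deficient tumours (19 above 0, 17 at an unadjusted p under 0.05, 2 rose). Over all genes the medians were -0.043 and -0.055, and 6.69% and 7.47% of genes were higher at that p. For the loss of miR-34a the median of the MYC target genes was -0.13 against wt (15 of 20 below 0, 0 passed; -0.024 without wt 3) and -0.027 among p53 deficient tumours (11 of 20 below 0, 1 rose). After quantile normalization the median among p53 deficient tumours was 0.031, and leaving out 1 library gave -0.10 to 0.061. The part of the cell type markers given above in these lists was not tested. Their summed values were 243572 to 289303 in double deficient, 252676 to 290218 in p53 deficient, 169535 to 190436 in miR-34a deficient and 188156 to 215089 in wt tumours. Both groups without p53 thus lay above both groups with it in every library.

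Tfrc, the transferrin receptor gene, was the MYC target that passed in 3 comparisons. It had values of 10687, 8630 and 10378 in double deficient, 4839, 3594 and 5180 in p53 deficient, 3338, 2574 and 2346 in miR-34a deficient and 3011, 1948 and 3115 in wt tumours. The double deficient libraries lay above all others. Tfrc rose by 1.86 ± 0.21 on the log2 scale against miR-34a deficient tumours (adjusted p = 0.00299), by 1.90 ± 0.21 against wt (adjusted p = 0.00283) and by 1.14 ± 0.21 against p53 deficient tumours (adjusted p = 0.0444). The first 2 of these calls held in all 22 alternatives, with adjusted p up to 0.0281 and 0.0271. The call against p53 deficient tumours was lost in 15 of 22 alternatives. Leaving out 1 library, it held only without wt 2 or p53 deficient 1, with adjusted p up to 0.177 (without double deficient 3). The highest adjusted p over all alternatives was 0.558, with the Y-linked level as covariate, where the difference was 0.918. Nop56, a nucleolar protein gene, rose in double against miR-34a deficient tumours (0.68 ± 0.14, adjusted p = 0.0492), a call that, leaving out 1 library, held only without wt 3, p53 deficient 1 or p53 deficient 2, with adjusted p up to 0.244 over the alternatives. In the MYC network, Mxd1, whose product competes with MYC for its partner MAX, had 4549, 5312 and 3530 in double deficient, 11181, 8103 and 9569 in p53 deficient, 11560, 16456 and 7782 in miR-34a deficient and 11209, 14739 and 14310 in wt tumours. The double deficient libraries lay below all others. Relative to miR-34a deficient tumours Mxd1 fell by 1.37 ± 0.25 (adjusted p = 0.035) and relative to wt by 1.60 ± 0.25 (adjusted p = 0.0197), and against p53 deficient tumours it was at -1.11 ± 0.25 (adjusted p = 0.0835). Both calls were lost without double deficient 1 or 3, the first also without miR-34a deficient 1 or 2 and the second without any wt library, with adjusted p up to 0.188 and 0.109. The other 9 genes of the MYC network did not pass in any comparison.

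Of 12 other NuRD subunits, the complex of MTA2, 0 passed in any comparison. Hdac1, its deacetylase, had 10706, 9308 and 8804 in double deficient against 6837, 4585 and 5600 in p53 deficient tumours, without overlap, at 0.77 ± 0.16 on the log2 scale (limma adjusted p = 0.0567). Gatad2b was at 0.57 ± 0.20 in miR-34a deficient tumours against wt (adjusted p = 0.756). None of the 6 other sirtuins and 3 other FOXP factors passed in any comparison. Among the cell type markers 2 rose, both endothelial and both in double deficient tumours against wt. Cdh5 was at 2.01 ± 0.38 (adjusted p = 0.0371) and Flt1 at 1.89 ± 0.33 (adjusted p = 0.0323), with adjusted p up to 0.133 and 0.116 over the alternatives. Both calls were lost without wt 1, wt 3, miR-34a deficient 1, double deficient 1 or double deficient 3, and that of Cdh5 also without double deficient 2, p53 deficient 3 or miR-34a deficient 2.

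**Figure D4:**
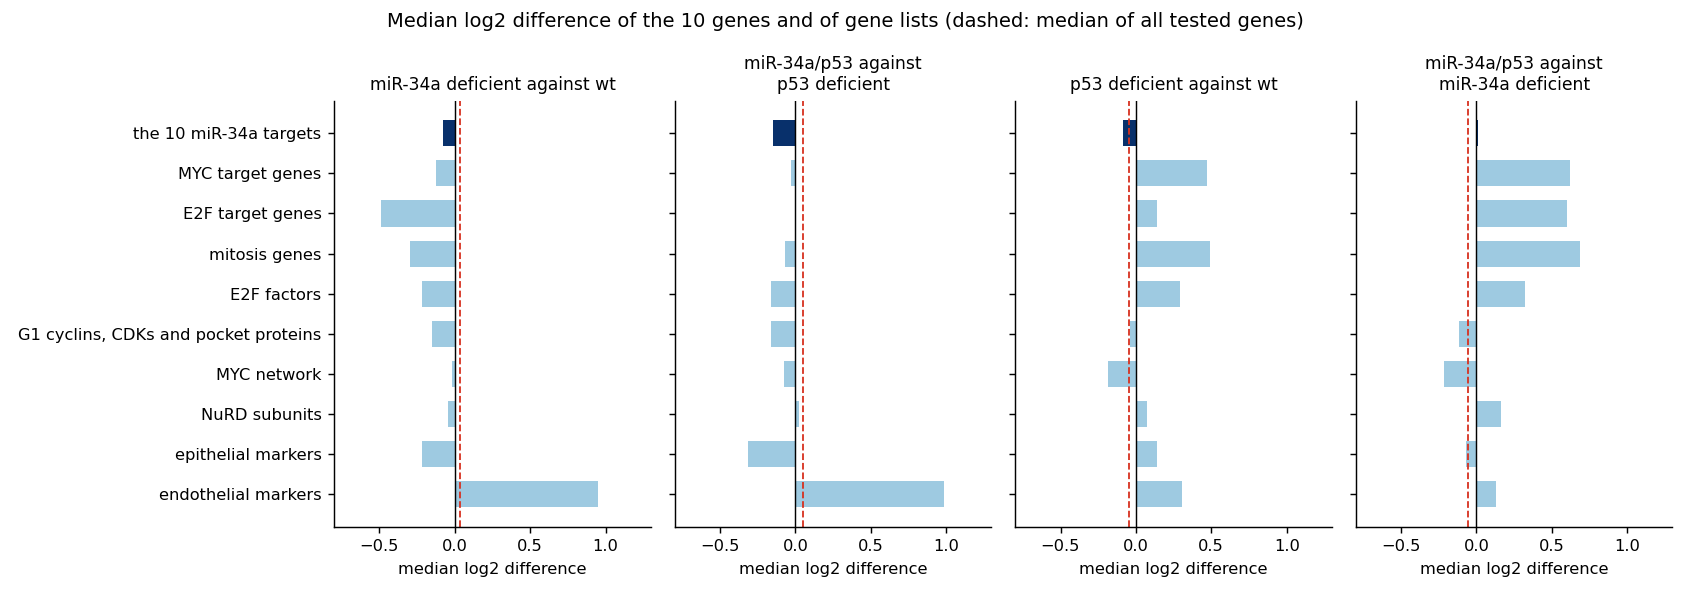
Median log2 difference of the 10 genes (dark bar) and of other gene lists (light bars) in 4 comparisons, with the first-named genotype over the second. The dashed line is the median of all tested genes. MYC target genes have medians of 0.47 and 0.62 where p53 loss is compared, endothelial markers 0.95 and 0.99 where miR-34a loss is compared, and the 10 genes stay between -0.15 and 0.011.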

How the data were processed

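The authors deposited a table of normalized values (unit: score), 1 whole number per gene and library, for 12 libraries. Per the submitters' processing notes the build was mm10. How reads were aligned, counted and normalized is not given in the sources used here. Counts had been planned for, but the column sums (45310209 to 101121673), with Xist up to 52.8% of one, beside upper quartiles of 1905 to 1982.25, showed otherwise, so no count model was used.

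The fit used log2(value + 1). The 21322 genes with a mean of at least 1 were fitted with limma 3.58.1 in R 4.3.3 (trended prior variance, 1 mean per genotype, 8 residual degrees of freedom) and p-values adjusted by Benjamini-Hochberg over all of them. Fold changes of low genes are understated by the added 1. Genes named outside the 10 members are those of the fixed lists that passed, up to 4 per list and comparison, or else up to 2 of the smallest p for miR-34a loss; Trp53; and the 3 genes most like each of the 4 most variable members, of which 1 is not reported here. The members, lists and tests were chosen with earlier results of these data known. The procedure was tested on simulated data. Replicate numbers were not treated as pairs in the main fit. Of 18 same-number pairs 7 correlated above 0.1, with r up to 0.509, and different-number pairs reached 0.262. These values do not settle whether the numbers pair samples. Alternatives were another pseudocount (10), no filter, a mean of at least 50, median-of-ratios and quantile rescaling, a replicate block, only the groups compared, leaving out the other run code, 2 covariates, and leaving out each library (for list medians, chosen after seeing the data).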

Additional observations from a re-analysis of the deposited data

Results flagged for a closer look

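Cdk4 was singled out because its 2 contrasts of p53 loss ran in opposite directions in every library. All p53 deficient libraries (12170 to 15639) lay below all wt libraries (15713 to 19008), while all double deficient libraries (17967 to 21123) lay above all miR-34a deficient libraries (14236 to 16195). The interaction was 0.57 ± 0.19 on the log2 scale, with an unadjusted p of 0.0115 and a limma adjusted p of 0.516, so the difference did not pass the test over all genes. It lay between 0.45 and 0.66 in the 21 alternatives, with adjusted p between 0.407 and 0.872.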

How the results depend on the processing

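No member passed in any of 1520 alternative results, the lowest adjusted p being 0.0728 for Myc in double against miR-34a deficient tumours without double deficient 2 (0.0728 to 0.361 over its alternatives). Members kept their sign in all but 47 of them. Counts of all changed genes moved more. In miR-34a deficient tumours against wt (8 genes) they were 5 after quantile normalization, 5 with the missing direction as covariate, 5 with the Y-linked one, and 4 to 12 leaving out 1 library. In double against p53 deficient tumours (129) they were 12 with only the groups compared, 47 with the missing direction, 7 with the Y-linked level and 27 to 294 leaving out 1 library. Pooled over p53 states (73) they were 31, 6 and 17 to 191 for the last 3 of these. In p53 deficient tumours against wt (5) they were 3 with a pseudocount of 10, 2 without a filter, 2 with the replicate block, 1 with only the groups compared, 8 without the other run code, 2 with the missing direction, 1 with the Y-linked level and 1 to 88 leaving out 1 library. In double against miR-34a deficient tumours (193) they were 79 without the other run code, 57 with the missing direction, 73 with the Y-linked level and 23 to 246 leaving out 1 library. In double deficient tumours against wt (171) they were 102 with the replicate block, 88 with only the groups compared, 74 without the other run code, 57 with the missing direction, 80 with the Y-linked level and 29 to 261 leaving out 1 library. For the interaction (5) they were 3 with the replicate block, 2 with the missing direction, 1 with the Y-linked level and 2 to 10 leaving out 1 library. Counts were lowest without double deficient 3 in the 3 comparisons with over 100 changed genes and the pooled one, and without wt 1 in p53 deficient tumours against wt. They were highest without p53 deficient 1 in the interaction, the pooled comparison, double against p53 deficient and p53 deficient against wt, and without p53 deficient 2 in the other comparisons of double deficient tumours. The cause of these shifts was not tested. The replicate block changed no call of a member, but under it the calls of Nop56 in double against miR-34a deficient tumours (adjusted p = 0.0743) and of Cdkn1a (0.0565) and Cdh5 (0.069) in double deficient tumours against wt were lost. Of the calls in the gene lists, those of Tfrc against miR-34a deficient tumours and wt held throughout, and all others were lost without the other run code.

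Signs of members turned in the following cases, in log2 differences, none of them called. In miR-34a deficient tumours against wt, Mta2 was at 0.0094 after quantile normalization and 0.025 without the other run code, Ccnd1 at -0.019 and E2f3 at -0.0033 without the other run code. Leaving out 1 library gave ranges of -0.027 to 0.025 for Mta2, -0.30 to 0.27 for Ccnd1, -0.073 to 0.16 for E2f3, -0.12 to 0.28 for Sirt1 and -0.37 to 0.020 for Foxp1. In double against p53 deficient tumours, Sirt1 was at 0.19 with the Y-linked level, and leaving out 1 library gave -0.12 to 0.0022 for Sirt1 and -0.099 to 0.23 for Myc. Pooled over p53 states, Mycn was at 0.43 without the other run code and Sirt1 at 0.11 with the Y-linked level, and leaving out 1 library gave -0.13 to 0.033 for Myc, -0.38 to 0.43 for Mycn, -0.15 to 0.024 for E2f3 and -0.095 to 0.10 for Sirt1. In p53 deficient tumours against wt, Ccnd1 was at 0.061 with the Y-linked level, and leaving out 1 library gave -0.29 to 0.027 for E2f3 and -0.26 to 0.14 for Sirt1. In double deficient tumours against wt, leaving out 1 library gave -0.69 to 0.21 for Mycn, -0.32 to 0.076 for Sirt1 and -0.15 to 0.24 for Foxp1. For the interaction, Ccne2 was at -0.0042 after quantile normalization and -0.10 without the other run code, Sirt1 at 0.15 with the Y-linked level, and leaving out 1 library gave -0.17 to 0.10 for Ccne2 and -0.34 to 0.055 for Sirt1.

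With normalized scores and 3 libraries per genotype, depth is unknown and differences as small as those of most members cannot be told from 0.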
